A study of Homo sapiens with 15 samples.

Results

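The transcriptional co-activators YAP and TAZ, 2 of the TEAD transcription factors that bring them to DNA, and 6 genes widely used as a readout of their activity were followed through a dose series of RBM47, an RNA-binding protein. These 10 genes (YAP1, WWTR1, TEAD1, TEAD4, CTGF, CYR61, ANKRD1, AMOTL2, LATS2 and AXL) were picked by name from the 23368 genes of the count table. WWTR1 encodes TAZ, and CTGF and CYR61 are the older symbols of CCN2 and CCN1. RNA-seq was available for 3 breast cancer clones, each grown from a single cell and each with 1 library at 0, 1, 2.5, 5 and 25 ng/ml doxycycline, which gave 15 libraries. WT6 and WT10 cells carried a FLAG-tagged wild type RBM47 on the retroviral pRetroX-Tight system, which is switched on by doxycycline. MUT3 cells carried the mutant RBM47-I281fs, which truncates the protein, on the same system and received the same doses of the drug. The labels place all 3 clones in MDA231, a triple negative breast cancer line. The methods of the study derive WT10 and MUT3 cells from the brain metastatic derivative of MDA231 and WT6 cells from that of another line, CN34. Parental line and clone therefore cannot be told apart in any comparison with WT6 cells. The length of the doxycycline treatment of these libraries is not given in the sources used here.

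In the Hippo pathway, the kinases MST1 and MST2 activate LATS1 and LATS2, which phosphorylate YAP and TAZ and keep them out of the nucleus. When the cascade is off, YAP and TAZ enter the nucleus and bind TEAD factors, which carry them to promoters and enhancers of growth and matrix genes. This output is controlled mainly through protein phosphorylation and location, which mRNA levels do not show. In basal breast cancer cells YAP and TAZ are known for their links to proliferation, migration and metastatic growth, and several of their targets, LATS2 and AMOTL2 among them, feed back to restrain them.

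The promoters of CTGF and ANKRD1, the classical direct targets of the group, are shown because they hold several copies of the TEAD recognition motif. They were read from a RefSeq promoter table of build GRCh38.p14, which had an entry for 7 of the 10 genes, and placed on GRCh37 (hg19), the build of the count table, by exact match. Each runs from 250 bases before to 50 bases after the start site, 5′ to 3′ on the strand of the gene, and capitals mark GGAATG, searched on both strands as GGAATG and CATTCC. The CTGF promoter lies at chr6:132272463-132272762 and the ANKRD1 promoter at chr10:92680795-92681094, both on the minus strand.
CTGF: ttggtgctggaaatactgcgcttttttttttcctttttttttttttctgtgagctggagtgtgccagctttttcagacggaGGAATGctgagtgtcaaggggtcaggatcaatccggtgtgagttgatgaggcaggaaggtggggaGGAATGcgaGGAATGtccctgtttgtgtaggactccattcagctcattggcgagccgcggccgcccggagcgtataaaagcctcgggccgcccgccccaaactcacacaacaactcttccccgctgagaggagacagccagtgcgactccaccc
ANKRD1: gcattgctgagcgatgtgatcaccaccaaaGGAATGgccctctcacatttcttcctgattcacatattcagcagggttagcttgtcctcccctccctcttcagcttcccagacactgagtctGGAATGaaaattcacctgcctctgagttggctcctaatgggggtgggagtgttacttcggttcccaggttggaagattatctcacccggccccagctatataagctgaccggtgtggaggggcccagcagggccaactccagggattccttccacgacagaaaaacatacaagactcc
The CTGF promoter held 3 copies, which began 169, 104 and 95 bases upstream of the start site. The ANKRD1 promoter held 2 copies, which began 220 and 128 bases upstream. The YAP1 promoter held 1 copy and so did that of LATS2, while the WWTR1, AMOTL2 and AXL windows held none of these letters. Only the first promoter entry of each gene was read, so other start sites were not searched. The WWTR1 window (chr3:149421011-149421310, minus strand) lies inside the gene, away from its annotated 5′ end at 149454501. Of 35116 promoters in the table, 14.0% held at least 1 copy, 1.37% at least 2 and 0.128% at least 3. TEAD1, TEAD4 and CYR61 were not among the promoters used.

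The libraries held between 14955172 and 44771871 reads on genes (median 18152381). Values are normalized counts, reads on a gene divided by the DESeq size factor of the library. All 10 genes passed the filter of the test, a mean of at least 10 normalized counts in each clone. The lowest read count among them was 444, for TEAD4 in WT6 cells at 25 ng/ml, and counting error alone gave 95% Poisson intervals with a half-width between 0.736% and 9.42% of the value. Variation between cultures is not covered by these intervals, since each condition had 1 library. The epithelial markers KRT8, KRT18, KRT19 and EPCAM and the mesenchymal markers VIM, CD44 and ZEB1 were counted in every library (KRT8 between 8159 and 31010 normalized counts), whereas the hormone receptor ESR1 was at or under a floor of 3 reads in 5 of the 15. The leukocyte marker CD3E was at 0 in all 15 libraries and the endothelial marker CDH5 in 14. The leukocyte markers PTPRC and ITGAM were at or under the floor in 10 and 13 libraries, and the endothelial marker PECAM1 in 6. Their highest values were 6.18, 4.99 and 9.19 normalized counts. The keratin KRT7 averaged 51977 normalized counts in WT6, 127 in WT10 and 19.8 in MUT3 cells.

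RBM47 itself stood at 258, 3137, 8094, 3966 and 10425 normalized counts in WT6 cells at 0, 1, 2.5, 5 and 25 ng/ml. WT10 cells had 168, 827, 2822, 8134 and 19877, and MUT3 cells 73.8, 92.1, 336, 949 and 22084. RBM47 mRNA thus climbed at every step in WT10 and MUT3 cells, while WT6 cells had less at 5 than at 2.5 ng/ml. Below 25 ng/ml the mutant transcript stayed lower than the wild type one, so the clones were not matched for RBM47 mRNA at a given dose.

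The WT6 libraries at 5 and 25 ng/ml stood apart from the other 13, since their values followed transcript length across all genes. At 25 ng/ml the shortest quintile of genes had a median log2 change of 0.58 against untreated cells and the longest quintile one of -0.46, and at 5 ng/ml these medians were 0.60 and -0.41. At 25 ng/ml the WT10 medians were 0.06 and -0.08 and those of MUT3 cells -0.01 and 0.01. The WT10 medians ran the other way at 1 (-0.07 and 0.06), 2.5 (-0.08 and 0.06) and 5 ng/ml (-0.08 and 0.05). A smaller trend with length thus changed sign in the WT10 library at 25 ng/ml. TEAD4 fell in the shortest quintile, CTGF, CYR61 and ANKRD1 in the next one, YAP1, WWTR1, AMOTL2, LATS2 and AXL in the second longest and TEAD1 in the longest. For the 10 genes, the WT6 slopes are therefore given below also with the trends in length and GC content removed and without these 2 libraries.

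**Figure D1:**
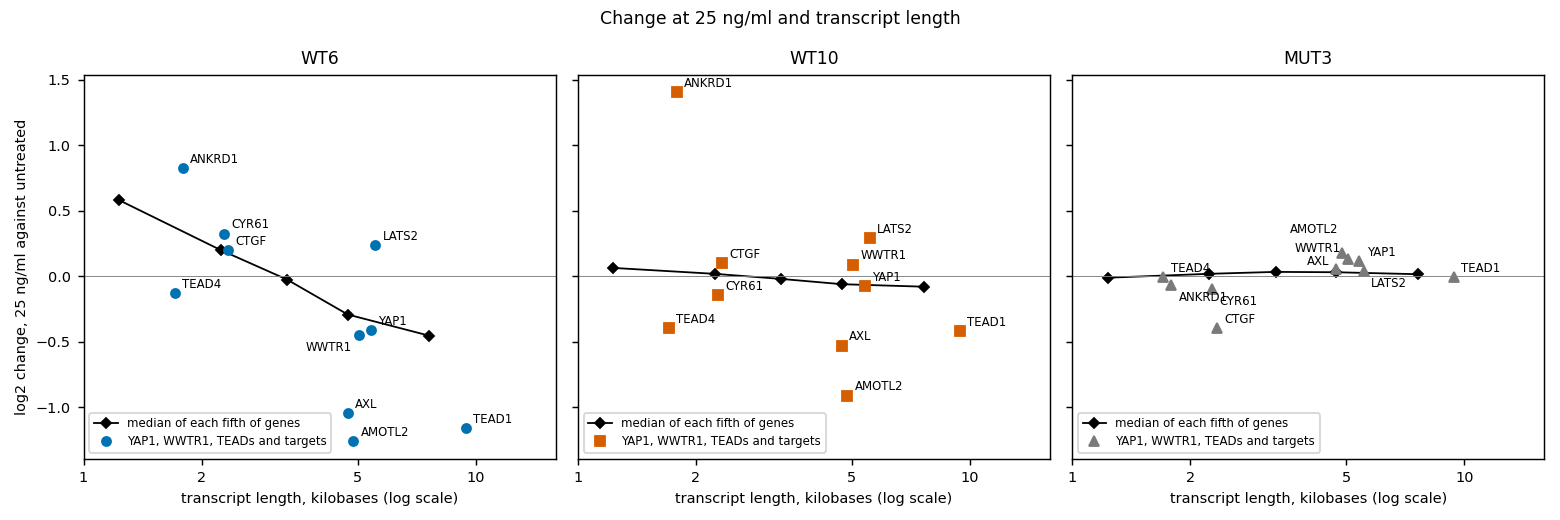
The log2 change of the normalized count at 25 ng/ml against untreated cells (vertical axis) is plotted against transcript length in kilobases (log scale) for the 10 genes, beside the median of each length quintile of 12116 annotated genes (black diamonds), with 1 library per point. In WT6 cells the medians run from 0.58 in the shortest quintile to -0.46 in the longest, while in WT10 and MUT3 cells they stay near 0. In WT6 cells AMOTL2, AXL, TEAD1 and TEAD4 lie well below the medians and ANKRD1 and LATS2 well above them.

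To compare the genes with each other, normalized counts were divided by the length of the transcript in kilobases. In untreated WT6 cells ANKRD1 was the highest of the 10 at 16098 normalized counts per kilobase, followed by CYR61 at 12479, AXL at 5389 and CTGF at 2400.0. YAP1 followed at 1191, AMOTL2 at 892 and TEAD1 at 715, and the lowest were TEAD4 at 354, WWTR1 at 328 and LATS2 at 199. The secreted matrix proteins CTGF and CYR61, the nuclear cofactor ANKRD1 and the receptor AXL thus occupied the top 4 places. They did so in the other clones as well, but in WT10 cells ANKRD1 was the last of the 4 at 3414 normalized counts per kilobase, behind CYR61 at 11147, CTGF at 4258 and AXL at 4148. In MUT3 cells CYR61 led at 9297, and AXL at 4004, ANKRD1 at 3794 and CTGF at 3704 lay close together. The ranges over the 5 doses overlapped between ANKRD1 and CYR61, AXL and CTGF, and all neighbours from AMOTL2 down to LATS2 in WT6 cells. They overlapped between CTGF and AXL, AXL and ANKRD1, AMOTL2 and TEAD4, TEAD4 and YAP1, and TEAD1 and LATS2 in WT10 cells, and between ANKRD1 and CTGF and between LATS2 and WWTR1 in MUT3 cells.

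**Figure D2:**
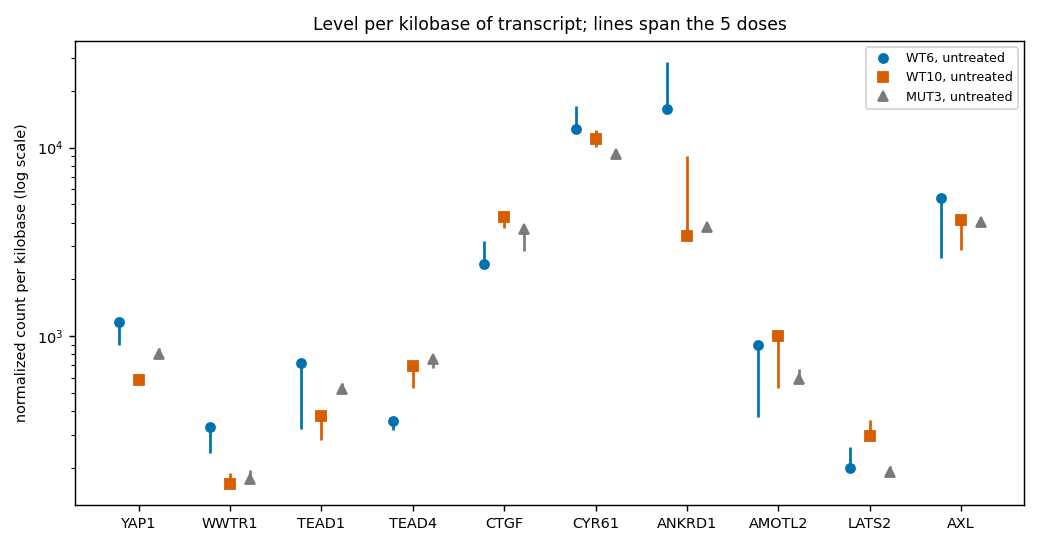
Levels are plotted in normalized counts per kilobase of transcript (vertical axis, log scale) for the 10 genes, with the untreated library of each clone as a symbol and a line that spans its 5 doses. CYR61 and AXL are high in all 3 clones, and ANKRD1 sits at 16098 in untreated WT6 cells but at 3414 and 3794 in WT10 and MUT3 cells.

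Levels before any induction differed between the clones for many genes of the table, and the shares called among these 10 were not far from those of all genes. On the log2 scale of the limma fit, ANKRD1 was 2.39 higher in WT6 than in WT10 cells (SE 0.13, limma with Benjamini-Hochberg adjustment, adjusted p = 8.67e-10). YAP1 was 1.06 higher (SE 0.09, adjusted p = 7.59e-08), WWTR1 1.00 higher (SE 0.10, adjusted p = 3.98e-07), TEAD1 0.94 higher (SE 0.14, adjusted p = 2.51e-05) and AXL 0.34 higher (SE 0.10, adjusted p = 0.00617). In the other direction the log2 difference was -0.95 for TEAD4 (SE 0.10, adjusted p = 1.17e-06), -0.65 for CTGF (SE 0.13, adjusted p = 0.000362) and -0.44 for LATS2 (SE 0.12, adjusted p = 0.00498). These were 8 of the 10 genes, where 59.6% of all 12644 genes tested differed between these clones of different parental lines. CYR61 (log2 difference 0.19, adjusted p = 0.151) and AMOTL2 (-0.19, adjusted p = 0.203) did not pass the test. With the length and GC trends removed the 8 were still called, and CYR61 (0.28, adjusted p = 0.0271) and AMOTL2 (-0.24, adjusted p = 0.0355) passed as well. Without the WT6 libraries at 5 and 25 ng/ml AMOTL2 (-0.28, adjusted p = 0.00675) joined the 8 while CYR61 did not (0.07, adjusted p = 0.432). The share of 59.6% belongs to the fit to all 15 libraries without trend removal. The other fits are given without such a share, so their added calls are not read as results about these genes. Between MUT3 and WT10 cells, which share the parental line, 4 of the 10 genes differed, against 28.2% of all genes. YAP1 was higher in MUT3 cells (log2 difference 0.43, SE 0.09, adjusted p = 0.00172), and AMOTL2 (-0.89, SE 0.12, adjusted p = 9.83e-05), LATS2 (-0.60, SE 0.12, adjusted p = 0.00176) and CYR61 (-0.32, SE 0.11, adjusted p = 0.0384) were lower. These levels are the intercepts of a fit over 5 doses, so their error is the scatter of the 15 libraries about the fitted lines and not that of repeated untreated cultures.

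Next, the change with dose was measured as the slope of log2(normalized count + 1) on log2(dose + 1) within each clone. In this unit the range from 0 to 25 ng/ml spans the whole series, and a gene was called with a Benjamini-Hochberg adjusted p under 0.05 over all 12644 genes. In WT6 cells 7 of the 10 genes were called, ANKRD1 and CYR61 upward and YAP1, WWTR1, TEAD1, AMOTL2 and AXL downward, against 29.2% of all genes called upward and 28.3% downward. In WT10 cells ANKRD1 rose and TEAD4, AMOTL2 and AXL fell, against 10.2% of all genes called upward and 9.83% downward. In MUT3 cells limma called 0 of the 10 genes and 0% of all genes, with 1 of the 10 and 295 of all genes at an unadjusted p under 0.05. Even the induced RBM47, whose mRNA climbed at every step in MUT3 cells, was not called there (limma adjusted p = 0.0517). The absence of a limma call in MUT3 cells, here and in the gene lists below, therefore does not show that a gene stayed level. The median slope of the 10 genes was -0.06 in WT6, -0.02 in WT10 and 0.01 in MUT3 cells, beside 0.01, 0.00 and 0.00 over all genes tested. The 2 wild type clones shared 3 called genes, ANKRD1 upward and AMOTL2 and AXL downward.

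**Figure D3:**
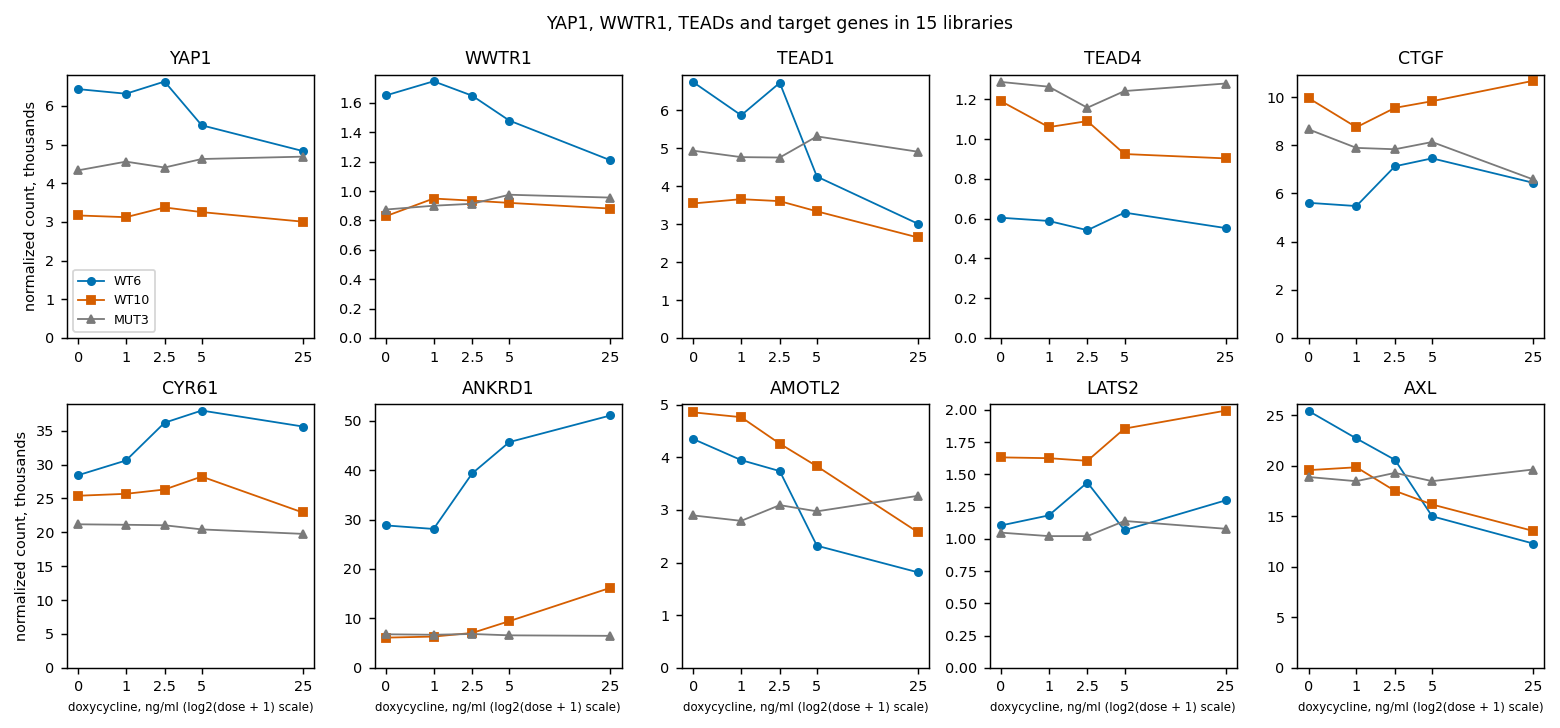
Each panel plots the normalized count of 1 gene (vertical axis, from 0) against the doxycycline dose in ng/ml on a log2(dose + 1) scale, with 1 library per point and lines joining the 5 doses of WT6 (circles), WT10 (squares) and MUT3 cells (triangles). ANKRD1 climbs and AMOTL2 and AXL decline in both wild type clones, whereas the MUT3 lines stay close to level apart from CTGF, which ends at 6581.

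Among the co-activators, YAP1 (hg19 chromosome 11, 101981178 to 102104155, plus strand) stood at 6435, 6316, 6631, 5500.2 and 4834 normalized counts in WT6 cells over the 5 doses. The value held up to 2.5 ng/ml and was lower only in the 2 libraries that followed transcript length. WT10 cells had 3169, 3124, 3376, 3255 and 3008 and MUT3 cells 4336, 4560.4, 4408, 4628 and 4689. The ranges of the 3 clones did not overlap. The slope was -0.10 in WT6 cells (SE 0.02, adjusted p = 0.00367), -0.01 in WT10 cells (SE 0.02, adjusted p = 0.729) and 0.02 in MUT3 cells (SE 0.02, adjusted p = 1). With the trends in length and GC content removed the WT6 slope was -0.01 (adjusted p = 0.497), and without the WT6 libraries at 5 and 25 ng/ml it was 0.02, with no call. With WT6 cells fitted alone it was -0.10 and not called either (limma adjusted p = 0.0914).

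WWTR1, which encodes TAZ (chromosome 3, 149235022 to 149454501, minus strand), had 1650.5, 1747, 1649, 1479.6 and 1209.5 normalized counts in WT6 cells. In WT10 cells it had 829, 949, 935, 919 and 881, and in MUT3 cells 874, 900.1, 913, 975 and 955. All 5 WT6 libraries lay above all 10 libraries of the other clones, and WT10 and MUT3 cells overlapped. The slope was -0.11 in WT6 cells (SE 0.03, adjusted p = 0.00288) and 0.01 in WT10 cells (SE 0.03, adjusted p = 0.899). It was -0.03 (adjusted p = 0.162) in WT6 cells with the trends removed and 0.00, with no call, without the libraries at 5 and 25 ng/ml. With WT6 cells fitted alone it was -0.11 and not called (limma adjusted p = 0.0674). Per kilobase, YAP1 exceeded WWTR1 by between 3.37 and 3.75 times over the WT6 libraries, 3.07 and 3.57 times in WT10 and 4.43 and 4.73 times in MUT3 cells, so the balance of the 2 co-activator transcripts moved little with dose.

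Of the DNA-binding partners, TEAD1 (chromosome 11, 12695968 to 12966284, plus strand) fell in WT6 cells, from 6734 normalized counts through 5865, 6719.96 and 4251 to 3008. WT10 cells had 3544, 3656, 3604, 3336 and 2647, and MUT3 cells 4932, 4763, 4753, 5309.9 and 4906. In both wild type clones the library at 25 ng/ml was the lowest of the 5, at 0.447 times the untreated value in WT6 cells and 0.747 times in WT10 cells. In MUT3 cells the ratio was 0.995. The slope was -0.26 in WT6 cells (SE 0.04, adjusted p = 6.66e-05) and did not pass the test in WT10 cells (-0.10, SE 0.04, adjusted p = 0.0772). The difference between these slopes was called at the edge of the threshold (-0.16, SE 0.05, adjusted p = 0.0492), the only one of the 10 genes, where 14.4% of all genes differed between the wild type clones. With the length and GC trends removed the slope was -0.14 in WT6 cells (adjusted p = 7.03e-05) and -0.08 in WT10 cells (adjusted p = 0.0099), and the difference was no longer called. Without the WT6 libraries at 5 and 25 ng/ml the WT6 slope was -0.01 (adjusted p = 0.963) and the difference was 0.09. TEAD1 had the longest transcript of the 10, at 9417 bases.

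TEAD4 (chromosome 12, 3068496 to 3149842, plus strand), another member of the family, followed another course. It had 605, 589, 542, 631 and 553 normalized counts in WT6 cells, 1191, 1061, 1091, 925 and 904 in WT10 cells, and 1288, 1264, 1158, 1242 and 1280.2 in MUT3 cells. Only the WT10 values at 5 and 25 ng/ml lay below all others of that clone, and WT6 cells had the least TEAD4 at every dose. The slope was -0.02 in WT6 cells (SE 0.03, adjusted p = 0.599) and -0.09 in WT10 cells (SE 0.03, adjusted p = 0.0382). With the trends removed the slopes were -0.13 (adjusted p = 0.000998) and -0.08 (adjusted p = 0.0123), both past the threshold. Without the WT6 libraries at 5 and 25 ng/ml the WT6 slope was -0.08 (adjusted p = 0.609), and without the WT10 library at 25 ng/ml the WT10 slope was -0.12, with no call (adjusted p = 0.257). TEAD4, with a transcript of 1710 bases, belonged to the quintile whose median was higher in the WT6 libraries at 5 and 25 ng/ml. Per kilobase, the ratio of TEAD1 to TEAD4 was 2.02, 1.81, 2.25, 1.22 and 0.988 over the WT6 doses. It stayed between 0.532 and 0.655 in WT10 cells and between 0.684 and 0.776 in MUT3 cells. TEAD1 was thus the more abundant of the pair only in WT6 cells up to 5 ng/ml.

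Among the targets, ANKRD1 (chromosome 10, 92671853 to 92680844, minus strand), a muscle ankyrin repeat protein that also acts in the nucleus, rose in both wild type clones. WT10 cells had 6111, 6325, 7057, 9448 and 16190.2 normalized counts, a rise at every step that reached 2.65 times the untreated value. WT6 cells had 28816, 28097, 39329.9, 45673 and 51055, or 1.77 times the untreated value at the highest dose. MUT3 cells stayed between 6473 and 6849.7. At 1 ng/ml the WT6 and WT10 libraries stood at 0.975 and 1.03 times their untreated values, and at 2.5 ng/ml and above every wild type library lay above the untreated one of its clone. The slope was 0.20 in WT6 cells (SE 0.04, adjusted p = 0.00046), 0.32 in WT10 cells (SE 0.04, adjusted p = 6.11e-05) and -0.02 in MUT3 cells (SE 0.04, adjusted p = 1). With the trends removed it was 0.11 in WT6 cells (adjusted p = 0.00781) and 0.28 in WT10 cells (adjusted p = 3.19e-05). Without the libraries at 5 and 25 ng/ml the WT6 slope was 0.24 but not called (adjusted p = 0.0951), and without the library at 25 ng/ml the WT10 slope was 0.23 and not called (adjusted p = 0.134).

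The secreted matrix targets of the CCN family took other courses. CTGF (chromosome 6, 132269316 to 132272512, minus strand) had 5611, 5476, 7127, 7457 and 6443 normalized counts in WT6 cells. WT10 cells had 9956, 8748, 9552, 9829 and 10676, and MUT3 cells 8660.05, 7891, 7834, 8134 and 6581. Values rose and fell again within 1.33 times of the untreated level in WT6 cells, without a trend in WT10 cells, and the lowest MUT3 library was that at 25 ng/ml. The slopes were 0.06 (SE 0.03, adjusted p = 0.16) in WT6, 0.04 (SE 0.04, adjusted p = 0.507) in WT10 and -0.07 (SE 0.03, adjusted p = 1) in MUT3 cells. Once the trends were removed, the WT6 slope of CTGF was 0.01 (adjusted p = 0.802). Without the WT6 library at 25 ng/ml it was 0.18 and called (adjusted p = 0.0137), and without that at 5 ng/ml as well it was 0.18 and not called (adjusted p = 0.175). CTGF was the gene with an unadjusted p under 0.05 in MUT3 cells.

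CYR61 (chromosome 1, 86046444 to 86050272, plus strand) was among the most abundant of the 10 in each clone. It had 28427, 30597, 36168, 37966 and 35609.8 normalized counts in WT6 cells, 25394, 25677, 26313, 28223 and 22921 in WT10 cells, and 21179, 21108, 21037, 20427 and 19766 in MUT3 cells. Every WT6 library exceeded every library of the other clones, and the WT10 library at 25 ng/ml was the lowest of its clone. The slope was 0.07 in WT6 cells (SE 0.03, adjusted p = 0.0466) and -0.03 in WT10 cells (SE 0.03, adjusted p = 0.576). The WT6 call was lost with the trends removed (slope 0.02, adjusted p = 0.522) and in 9 of the 15 fits that left out 1 library. Without the WT6 libraries at 5 and 25 ng/ml the WT6 slope was 0.19 (adjusted p = 0.0612). With WT6 cells fitted alone it was 0.07 and not called (limma adjusted p = 0.271).

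AMOTL2 (chromosome 3, 134074189 to 134094321, minus strand), an angiomotin family protein that binds YAP at cell junctions, fell at every step of dose in both wild type clones. WT6 cells had 4343, 3945, 3736, 2319 and 1814 normalized counts, and WT10 cells 4851, 4759.5, 4257, 3827 and 2575. MUT3 cells had 2894, 2791, 3089.8, 2971 and 3266. At 25 ng/ml the wild type clones stood at 0.418 (WT6) and 0.531 times (WT10) their untreated value and MUT3 cells at 1.13 times, and the wild type clones, which began above MUT3 cells, ended below them. The slope was -0.29 in WT6 cells (SE 0.03, adjusted p = 1.76e-05), -0.20 in WT10 cells (SE 0.03, adjusted p = 0.00112) and 0.04 in MUT3 cells (SE 0.03, adjusted p = 1). With the trends removed it was -0.23 in WT6 cells (adjusted p = 7.97e-06) and -0.16 in WT10 cells (adjusted p = 0.000343). Without the libraries at 5 and 25 ng/ml the WT6 slope was -0.12 and not called (adjusted p = 0.29), and without that at 25 ng/ml the WT10 slope was -0.14 and not called (adjusted p = 0.313).

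AXL (chromosome 19, 41725128 to 41767671, plus strand), a receptor tyrosine kinase linked to invasive growth, declined with AMOTL2. WT6 cells had 25419, 22699.8, 20583, 15000.5 and 12303 normalized counts, a fall at every step. WT10 cells had 19567, 19849, 17513, 16167 and 13550.1, and MUT3 cells 18887, 18470.2, 19296, 18475 and 19628. From 5 ng/ml upward both wild type clones lay below all 5 MUT3 libraries, and at 25 ng/ml they stood at 0.484 and 0.692 times their untreated values. The slope was -0.24 in WT6 cells (SE 0.03, adjusted p = 9.63e-06), -0.12 in WT10 cells (SE 0.03, adjusted p = 0.00451) and 0.01 in MUT3 cells (SE 0.03, adjusted p = 1). It was -0.17 in WT6 cells (adjusted p = 4.05e-07) and -0.09 in WT10 cells (adjusted p = 0.00029) with the trends removed, and AXL was the 1 gene of the 10 still called in WT6 cells without the libraries at 5 and 25 ng/ml (-0.17, adjusted p = 0.0361). The WT10 slope was -0.11 without the library at 25 ng/ml, with no call (adjusted p = 0.286).

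LATS2 (chromosome 13, 21547175 to 21635725, minus strand), the kinase that phosphorylates YAP and TAZ and is itself a target of them, had 1104, 1182, 1437, 1067 and 1298 normalized counts in WT6 cells. WT10 cells had 1631, 1625, 1605, 1854 and 1994, and MUT3 cells 1048, 1021, 1021, 1138 and 1078. The 2 highest WT10 values were those at 5 and 25 ng/ml, and WT6 values moved up and down without order. The slopes were 0.03 (SE 0.03, adjusted p = 0.417) in WT6 cells and 0.07 (SE 0.03, adjusted p = 0.133) in WT10 cells. After removal of the trends they were 0.11 in both clones (adjusted p = 0.00118 and 0.00251), which passed the test. Without the WT6 libraries at 5 and 25 ng/ml the WT6 slope was 0.21, with no call (adjusted p = 0.0899).

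**Figure D4:**
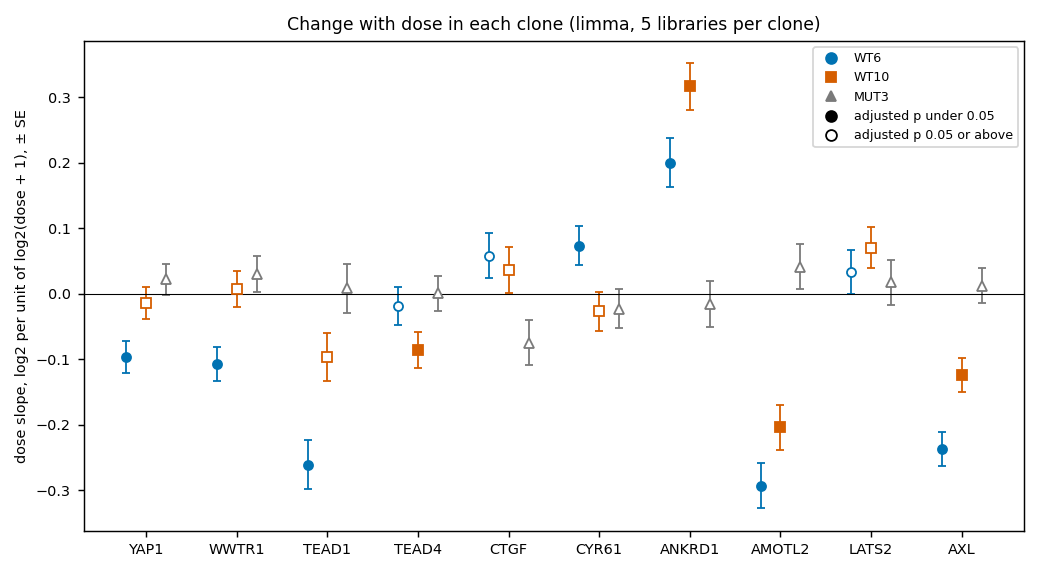
The slope of each gene on log2(dose + 1), in log2 units with its SE from limma, is plotted for WT6 (circles), WT10 (squares) and MUT3 cells (triangles), 5 libraries per clone, and filled symbols mark an adjusted p under 0.05. ANKRD1 lies at 0.20 and 0.32 in the wild type clones, AMOTL2 at -0.29 and -0.20 and AXL at -0.24 and -0.12, and no MUT3 symbol is filled. The induced RBM47, not plotted, was not called in MUT3 cells either, so an open MUT3 symbol does not show a level gene.

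The annotation of the opposite strand bears on some of these values, because the sources used here do not state whether the libraries kept the strand. Genes on the opposite strand overlap YAP1, WWTR1, TEAD1, CTGF, LATS2 and AXL, and reads from such a pair cannot be told apart without strand. WWTR1-AS1, which lies opposite WWTR1, had between 0 and 5.98 normalized counts over the 15 libraries. SCARNA16, opposite TEAD1, had between 0.919 and 8.72. TEAD4, CYR61, ANKRD1 and AMOTL2 had no overlapping gene on the opposite strand.

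To set the wild type clones against the mutant, their mean slope was compared with that of MUT3 cells, and 5 of the 10 genes differed, against 24.6% of all genes (10.1% with a higher and 14.6% with a lower slope in wild type cells). ANKRD1 (difference 0.27, SE 0.04, adjusted p = 0.00119) and CTGF (0.12, SE 0.04, adjusted p = 0.0474) had the higher slope in wild type cells. AMOTL2 (-0.29, SE 0.04, adjusted p = 0.000758), AXL (-0.19, SE 0.03, adjusted p = 0.00153) and TEAD1 (-0.19, SE 0.05, adjusted p = 0.0102) had the lower one. After removal of both trends the ANKRD1 (0.20, adjusted p = 0.00138), AMOTL2 (-0.22, adjusted p = 0.00021), AXL (-0.13, adjusted p = 0.000109) and TEAD1 (-0.12, adjusted p = 0.00307) differences were called and that of CTGF was not (0.10, adjusted p = 0.0729). TEAD4 (-0.10, adjusted p = 0.0105) and LATS2 (0.10, adjusted p = 0.0187) were called in that fit in addition. Without the WT6 libraries at 5 and 25 ng/ml the TEAD1 difference was not called (-0.06, adjusted p = 0.348), the other 4 were, and so were CYR61 (0.10, adjusted p = 0.0409) and LATS2 (0.12, adjusted p = 0.0471). The share of 24.6% belongs to the fit to all 15 libraries without trend removal. The other fits are given without such a share, so their added calls are not read as results about these genes. The CTGF difference held in 4 of the 15 fits that left out 1 library, and its sign came from a small rise in wild type cells and a small decline in MUT3 cells, neither of which was called in this fit. With each clone fitted alone the MUT3 decline was called (-0.07, adjusted p = 0.000202). Within the shared parental line, 3 of the 10 genes had different slopes in WT10 and MUT3 cells, against 5.62% of all genes. The difference was 0.33 for ANKRD1 (SE 0.05, adjusted p = 0.00415), -0.24 for AMOTL2 (SE 0.05, adjusted p = 0.0121) and -0.14 for AXL (SE 0.04, adjusted p = 0.0443). Both comparisons use the same WT10 and MUT3 libraries, and without the MUT3 library at 25 ng/ml neither gave a call among the 10 genes. In that fit the mean wild type slope minus that of MUT3 cells was 0.27 for ANKRD1 (adjusted p = 0.131), -0.28 for AMOTL2 (adjusted p = 0.1205) and -0.18 for AXL (adjusted p = 0.1555). As 1 clone carried the mutant, the mutation and the clone cannot be told apart.

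The lowest dose moved these genes little. From 0 to 1 ng/ml the ratio ran from 0.871 (TEAD1) to 1.08 (CYR61) over the 10 genes in WT6 cells, from 0.879 (CTGF) to 1.15 (WWTR1) in WT10 cells, and from 0.911 (CTGF) to 1.05 (YAP1) in MUT3 cells. RBM47 mRNA rose by 12.2 times in WT6 cells and 4.93 times in WT10 cells over the same step, and by 1.25 times in MUT3 cells. With 1 library per dose these ratios have no replicate check.

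The wider pathway was described through 26 other genes of the Hippo cascade and its YAP, TAZ and TEAD partners, of which 24 passed the filter. VGLL1 was at 0 in all 15 libraries and DCHS1 had at most 47.6 normalized counts. In WT6 cells 1 of the 24 rose and 12 fell (median slope -0.08), in WT10 cells 4 rose and 2 fell (median -0.01), while limma called 0 in MUT3 cells, with 0 at an unadjusted p under 0.05 (median 0.01). Over all genes tested 29.2% rose and 28.3% fell in WT6 and 10.2% and 9.83% in WT10 cells. With the length and GC trends removed, 3 rose and 9 fell in WT6 cells, against 29.2% and 29.3% of all genes, and 4 rose and 3 fell in WT10 cells, against 16.6% and 19.0%. Without the WT6 libraries at 5 and 25 ng/ml, VGLL4 rose and 0 fell in WT6 cells, where 1.03% of all genes rose and 0.411% fell. The genes that fell in WT6 cells included the kinases STK4, which is MST1 (slope -0.15, adjusted p = 0.000418), and LATS1 (-0.46, adjusted p = 0.00166), and the phosphatase PTPN14, a binder of YAP (-0.21, adjusted p = 0.000114). With the trends removed these WT6 slopes were -0.05, -0.35 and -0.08, all still called (adjusted p = 0.00786, 0.00204 and 0.00864). In WT10 cells SAV1, the scaffold of the MST kinases, rose (0.10, adjusted p = 0.0153), as did WWC1 (0.09, adjusted p = 0.0339) and FRMD6 (0.11, adjusted p = 0.0154), which act upstream of them, and TEAD3 fell (-0.10, adjusted p = 0.0303).

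VGLL4 and FAT4 were the 2 genes of this list called in the same direction in both wild type clones. VGLL4, which competes with YAP for TEAD binding, had 781, 1051, 1186, 1431 and 2094 normalized counts in WT6 cells and 1587, 1641, 1679, 1949 and 2169.8 in WT10 cells, a rise at every step in both. MUT3 cells went from 1217 to 1366. The slopes were 0.29 in WT6 cells (SE 0.02, adjusted p = 1.39e-06) and 0.10 in WT10 cells (SE 0.02, adjusted p = 0.0048), and the slope of WT6 cells exceeded that of WT10 cells by 0.19 (SE 0.03, adjusted p = 0.00709). The WT6 slope of VGLL4 was 0.33 both with the trends removed (adjusted p = 1.71e-07) and without the libraries at 5 and 25 ng/ml (adjusted p = 0.0104). FAT4, an atypical cadherin upstream of the cascade, had 909, 764, 828, 349 and 250.4 in WT6 cells and 657, 675, 640.3, 558 and 284 in WT10 cells, with MUT3 cells between 433 and 578. Its slopes were -0.43 (SE 0.07, adjusted p = 0.000143) and -0.26 (SE 0.07, adjusted p = 0.0139), and that of WT6 cells was -0.29 with the trends removed (adjusted p = 0.000124) and -0.08, with no call, without those libraries (adjusted p = 0.754). The WT10 values of FAT4 dropped at the highest dose, whereas those of VGLL4 climbed throughout. Between WT10 and MUT3 cells neither slope difference was called by limma (VGLL4 0.07, adjusted p = 0.228, and FAT4 -0.19, adjusted p = 0.245). The mean wild type slope did differ from that of MUT3 cells (VGLL4 0.16, adjusted p = 0.00192, and FAT4 -0.28, adjusted p = 0.0233).

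A list of 20 other genes widely used as YAP and TAZ targets, all of which passed the filter, moved in both directions too. In WT6 cells 3 rose and 13 fell (median slope -0.11), in WT10 cells 3 rose and 6 fell (median -0.08), while limma called 0 in MUT3 cells, with 0 at an unadjusted p under 0.05 (median 0.01). Of all genes, 29.2% rose and 28.3% fell in WT6 cells and 10.2% and 9.83% did so in WT10 cells. With the trends removed 2 rose (NUAK2 and TGM2) and 10 fell in WT6 cells, against 29.2% and 29.3% of all genes, and 3 rose and 8 fell in WT10 cells, against 16.6% and 19.0%, and without the WT6 libraries at 5 and 25 ng/ml none was called in WT6 cells, with 6 at an unadjusted p under 0.05. Without removal of the trends, the 3 genes that rose were the same in both clones. NUAK2, a kinase of the AMPK family, went from 253 to 379 normalized counts in WT6 cells and from 111 to 299 in WT10 cells (slopes 0.12 and 0.31, adjusted p = 0.0106 and 0.000258). The stress gene GADD45A went from 1725 to 2291 and from 1137 to 2069 (slopes 0.11 and 0.20, adjusted p = 0.0494 and 0.0071), and EDN1, which encodes endothelin 1, from 626 to 861 and from 345 to 509.8 (slopes 0.11 and 0.14, adjusted p = 0.0106 and 0.0161). With the trends removed the WT6 slope was 0.13 for NUAK2 (adjusted p = 0.000622), but it was -0.02 for GADD45A (adjusted p = 0.585) and 0.04 for EDN1 (adjusted p = 0.127), with no call. In WT10 cells the 25 ng/ml library of each of these was well above the other 4.

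Among the targets that fell in both clones were F3, the tissue factor that starts coagulation, BIRC5, the mitotic protein survivin, and the transcription factor FOXF2. F3 went from 9589 to 4152 normalized counts in WT6 cells and from 7763 to 5461 in WT10 cells (slopes -0.26 and -0.11, adjusted p = 2.25e-05 and 0.027). BIRC5 went from 4447 to 2663 and from 3621 to 2436 (slopes -0.15 and -0.13, adjusted p = 0.000657 and 0.0079), and FOXF2 from 231 to 153 and from 421 to 206 (slopes -0.11 and -0.22, adjusted p = 0.0304 and 0.00108). MUT3 cells had between 4651 and 5406 for F3, between 3446 and 3649.8 for BIRC5 and between 431 and 499 for FOXF2. CCDC80 was also called downward in both clones (slopes -0.10 and -0.11, adjusted p = 0.00301 and 0.00451), but with the trends removed its WT6 slope was 0.02 (adjusted p = 0.478). The WT6 slopes of F3 (-0.30, adjusted p = 2.7e-07), BIRC5 (-0.18, adjusted p = 3.54e-05) and FOXF2 (-0.16, adjusted p = 0.0126) were still called in that fit. Set against MUT3 cells, the mean wild type slope was lower for 8 of the 20 targets and higher for 0, against 14.6% and 10.1% of all genes. This mean includes the WT6 libraries that followed transcript length. For WT10 against MUT3 cells, limma called IGFBP3 (-0.32, adjusted p = 0.00285) and FOXF2 (-0.18, adjusted p = 0.0413) lower and NUAK2 (0.25, adjusted p = 0.0388) higher. The other targets were not called there, F3 (adjusted p = 0.137) and BIRC5 (adjusted p = 0.0692) among them, against 5.62% of all genes called in either direction.

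**Figure D5:**
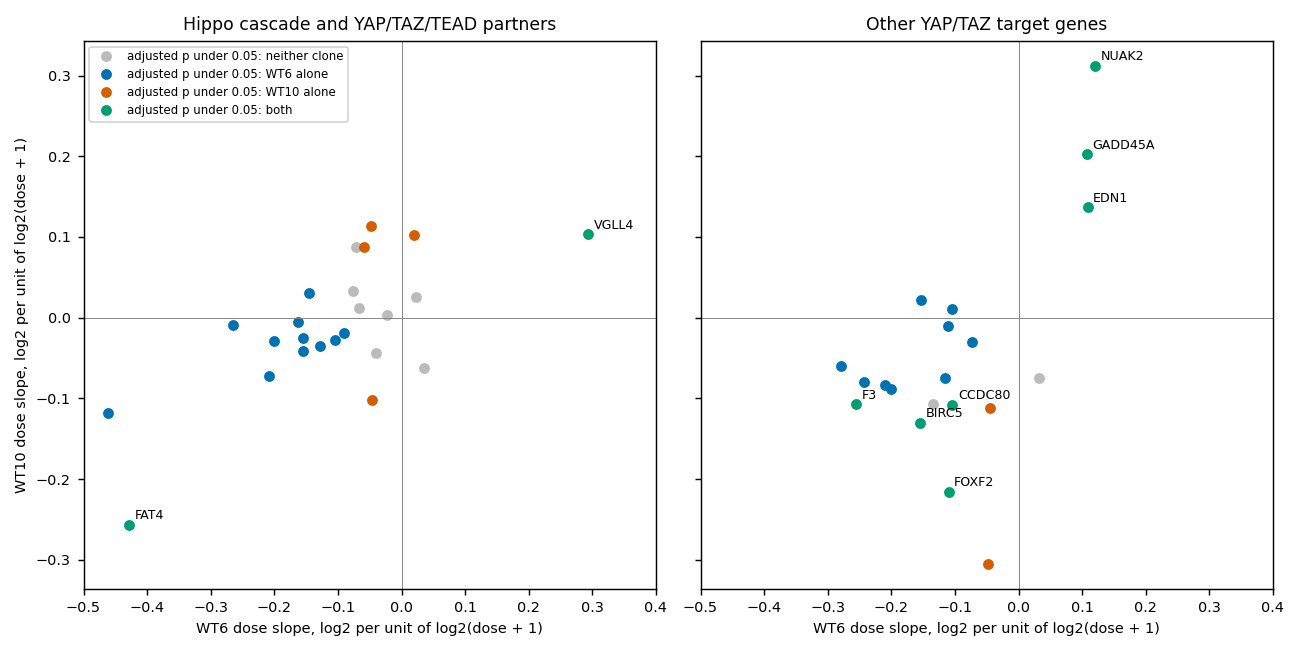
The slope on log2(dose + 1) in WT10 cells (vertical axis) is plotted against that in WT6 cells (horizontal axis), both in log2 units, for 24 genes of the Hippo cascade and its partners (left) and 20 other YAP and TAZ targets (right). Colours mark the clones in which a gene had an adjusted p under 0.05, and genes called in both clones are named: VGLL4 and FAT4 on the left, and on the right NUAK2, GADD45A and EDN1 upward and F3, FOXF2, BIRC5 and CCDC80 downward.

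The courses of the 10 genes were compared after the mean of each clone had been taken from its log2 values, as a description over 15 libraries that share the same doses and, in WT6 cells, the same length trend. AMOTL2 and AXL followed each other most closely, with a Pearson's r of 0.981, and YAP1 and TEAD1 reached 0.936. TEAD1 followed AMOTL2 (0.932) and AXL (0.928) as well, and YAP1 followed WWTR1 (0.878). ANKRD1 ran against AMOTL2 (-0.876) and AXL (-0.834). Of all genes tested, MLLT11 (0.986), ABHD3 (0.979) and RCN1 (0.978) had the course most like that of ANKRD1. RCAN1 (0.936) and C7orf31 (0.898) were most like CTGF, and RBM45 (0.915) and PPP2R5A (0.870) most like CYR61.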

How the data were processed

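RNA of 15 libraries, 3 clones at 5 doses of doxycycline, was selected for polyA and sequenced in paired ends. Per the study's methods and the submitters' processing notes, the authors used STAR to map reads to hg19 and HTSeq 0.5.4 to count them on genes, and normalized the counts with DESeq. The deposited table holds these normalized counts as a signal, reads divided by a size factor, which are not raw counts. In 14 libraries the size factor was recovered from the smallest step, and whole reads came out for 100% of the values within 0.01. In WT10 cells at 2.5 ng/ml 1 read was worth close to 1. HTSeq, run with default settings per the study, put between 56.5% and 59.6% of the reads tallied in its no_feature class. Between 0.527% and 0.617% were ambiguous. A floor of 3 reads corresponded to between 1.19 and 4.09 normalized counts, and intervals cover counting error only.

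Samples were grouped by the clone and dose in their labels. limma 3.58.1 in R 4.3.3 was fitted with precision weights (vooma) to log2(normalized count + 1), with each clone given its own intercept and its own slope on log2(dose + 1) (6 coefficients, 9 residual degrees of freedom), for the 12644 genes with a mean of at least 10 normalized counts in each clone. P-values were adjusted by Benjamini-Hochberg over all of these. They measure the scatter of single libraries about the fitted lines, and nothing in the labels says that the libraries came from separate cultures. The 10 genes and the 2 pathway lists were chosen with earlier results of these data known. Of each list, the genes with the largest changes that were called in the same direction in both wild type clones are named, and the other genes named were chosen after their values were seen.

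Alternatives were TMM factors, a pseudocount of 5, no filter, no weights, edgeR 4.0.16 and DESeq2 1.42.0 on the recovered reads, each clone fitted alone, slopes on the dose in ng/ml or on log2 RBM47, leaving out the 25 ng/ml libraries or each library in turn, and splines with 4 degrees of freedom that removed trends with transcript length and GC content. Length and GC content came from GENCODE release 44 on GRCh37, in which 92.0% of the genes were matched by symbol (19556) or older symbol (1933). An alternative without the WT6 libraries at 5 and 25 ng/ml was chosen after seeing the data. The limma fit was also run on simulated counts, with results not given here. Those counts held no length trend within a clone, so that run does not bear on the WT6 libraries at 5 and 25 ng/ml. TMM factors shifted the median of all genes by between -0.03 and 0.04 (log2). Columns of samples outside the labels numbered 0.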

Additional observations from a re-analysis of the deposited data

Results flagged for a closer look

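The slope of TEAD1 differed between the wild type clones by -0.16 (WT6 minus WT10, SE 0.05, limma adjusted p = 0.0492). This difference was called in 3 of the 15 fits that left out 1 library and under a pseudocount of 5 and DESeq2, and it was not called under any other alternative run. Over the 15 fits it ran from -0.230 to -0.109. Within the parental line of WT10 and MUT3 cells, the slopes of 3 genes differed. ANKRD1 had the higher slope in WT10 cells by 0.33 (SE 0.05, adjusted p = 0.00415), a difference that ran from 0.246 to 0.394 over the 15 fits and was not called without the 25 ng/ml library of either clone. AMOTL2 had the lower slope in WT10 cells, with a difference of -0.24 (SE 0.05, adjusted p = 0.0121), which ran from -0.283 to -0.177 and was not called without the 25 ng/ml library of either clone or the untreated MUT3 library. For AXL the difference was -0.14 (SE 0.04, adjusted p = 0.0443), and it ran from -0.156 to -0.120 over the 15 fits, in 11 of which it was not called.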

How the results depend on the processing

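The 10 genes gave 7 calls in WT6, 4 in WT10 and 0 in MUT3 cells, 5 for the mean wild type slope against MUT3 cells, 3 for WT10 against MUT3 cells, 1 for WT6 against WT10 cells, and 8 and 4 for the untreated levels. The counts that follow are of the 10 genes alone. Except where a share of all genes is given, a shift in a count cannot be read as particular to these genes. The count between the wild type clones was 0 under TMM factors, no filter, no weights, edgeR, a slope on the dose in ng/ml, a slope on log2 RBM47, without the 25 ng/ml libraries and without the WT6 libraries at 5 and 25 ng/ml, 2 with the length and GC trends removed and 3 under DESeq2. In WT6 cells 4 genes were called with each clone fitted alone, 0 with a slope on log2 RBM47 and 1 without the WT6 libraries at 5 and 25 ng/ml. In the last of these fits 1.03% of all genes rose and 0.411% fell in WT6 cells. In WT10 cells 2 were called with a slope on the dose in ng/ml, 0 with one on log2 RBM47 and 0 without the 25 ng/ml libraries. In MUT3 cells 1 gene (CTGF) was called with each clone fitted alone. The mean wild type slope against MUT3 cells gave 0 calls with a slope on log2 RBM47 and 0 without the 25 ng/ml libraries. WT10 against MUT3 cells gave 1 call with the dose in ng/ml, 0 with log2 RBM47, 0 without the 25 ng/ml libraries and 6 without the WT6 libraries at 5 and 25 ng/ml, a fit that also gave 7 for the level of MUT3 against WT10 cells. Without those WT6 libraries the WT6 slopes of YAP1 and WWTR1 turned to 0.022 and 0.0025, and the TEAD1 difference between the wild type clones to 0.086. In that fit the WT10 minus MUT3 slope differences called in addition kept their size. TEAD1 was -0.104 (-0.105 with all 15 libraries), TEAD4 -0.086 (-0.086) and CTGF 0.111 (0.111). Each clone has its own line, but the error is estimated over all clones together. Leaving out WT6 libraries can therefore change the p-values of the other clones while their slopes stay. The cause of the other shifts was not tested.

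When 1 library was left out, the counts ran from 6 to 7 in WT6 cells, from 0 to 6 in WT10 cells, from 0 to 0 in MUT3 cells, from 0 to 6 for the mean wild type slope against MUT3 cells, from 0 to 3 for WT10 against MUT3 cells, from 0 to 5 between the wild type clones, and from 7 to 9 and from 3 to 6 for the levels. All 4 WT10 calls ended without the WT10 library at 25 ng/ml, which also left 3 calls for the mean wild type slope against MUT3 cells, and all calls against MUT3 cells ended without its library at 25 ng/ml. The WT6 calls of YAP1 (adjusted p = 0.226) and WWTR1 (adjusted p = 0.294) ended without the WT6 library at 25 ng/ml. The WT6 calls of TEAD1, ANKRD1, AMOTL2 and AXL held in all 15 of these fits, whereas those of CYR61 in WT6 cells and TEAD4 in WT10 cells were each lost in 9. Depth limits TEAD4 in WT6 cells most, with 444 reads in 1 library.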
